A study of Mus musculus with 34 samples.

Results

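This account covers 8 genes that macrophages of obese fat are known to express, Mmp12, Lgals3, Adam8, Cd68, Adgre1, Laptm5, Tyrobp and Ctss, in the epididymal fat of mice. They were picked by symbol, with their measured log ratios on the same arrays known, and each has 1 probe, so they make 8 of 22879 features compared (18617 of them with a gene symbol). Because the measured ratios chose them, their values are given as a description, without a test of their own. The 34 two-colour arrays each held RNA of 2 diet groups, 1 in Cy5 and 1 in Cy3. STD mice ate a normal diet, HF0 mice were offspring of STD parents raised on high fat food, and HF1 mice were high-fat offspring of HF0. HF3 mice were high-fat offspring of an HF2 generation not analysed here, and HF4 mice were high-fat offspring of HF3. Each of HF1, HF3 and HF4 also had a reversal group (HF1-REV, HF3-REV, HF4-REV) born to the same parents and kept on normal food. The sources used here state neither the number of animals per RNA extract nor their strain or age.

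Epididymal fat of obese rodents is known to gather macrophages that surround dying adipocytes and take up their lipid. Such cells digest matrix with secreted and surface metalloproteinases and digest lipid and protein in lysosomes. They read their surroundings through receptors that signal by shared adaptors. Mmp12 encodes the macrophage elastase, a secreted metalloproteinase, and Adam8 encodes a surface protein of myeloid cells with a metalloproteinase and a disintegrin domain. Lgals3 encodes galectin-3, a lectin that binds galactose-containing sugars and was long used as the macrophage antigen Mac-2. Tyrobp encodes the adaptor DAP12, which passes on signals from receptors such as TREM2. Adgre1 encodes F4/80, the surface antigen used to identify mouse macrophages. Cd68 encodes macrosialin, a glycoprotein of late endosomes and lysosomes. Laptm5 encodes a lysosomal membrane protein of blood cells, and Ctss encodes the lysosomal cysteine protease cathepsin S.

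The genes are described as 2 sets, formed after their values were seen: Mmp12, Lgals3 and Adam8, whose log2 differences from STD were 1.01 or above in HF0, HF3 and HF4, and Cd68, Adgre1, Laptm5, Tyrobp and Ctss, whose differences were 0.81 or below. Promoter sequence is shown for 2 genes of each set, so that the upstream regions of the 2 sets can be read side by side. RefSeq (GRCm38.p6) held a promoter entry for 6 of the 8 genes. Each line gives the 250 bases before an annotated start, on the gene's strand, 5′ to 3′. Capitals mark matches on either strand to GAGGAA (the core of the PU box, which the myeloid factor PU.1 is known to bind), to GGAAGT (an ETS family core) or to TGANTCA (the AP-1 motif). GAGGAA and GGAAGT can overlap, and one such run lies in the first sequence.

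Mmp12: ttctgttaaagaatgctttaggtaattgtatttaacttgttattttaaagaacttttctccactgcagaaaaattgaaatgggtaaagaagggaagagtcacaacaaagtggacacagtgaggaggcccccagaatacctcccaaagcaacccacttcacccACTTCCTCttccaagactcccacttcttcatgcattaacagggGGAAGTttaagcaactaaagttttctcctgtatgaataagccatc
Lgals3: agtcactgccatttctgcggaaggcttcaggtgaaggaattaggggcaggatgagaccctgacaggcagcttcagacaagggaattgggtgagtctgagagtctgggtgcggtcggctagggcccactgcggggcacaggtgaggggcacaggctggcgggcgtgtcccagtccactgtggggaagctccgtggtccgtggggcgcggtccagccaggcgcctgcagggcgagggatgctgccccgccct
Cd68: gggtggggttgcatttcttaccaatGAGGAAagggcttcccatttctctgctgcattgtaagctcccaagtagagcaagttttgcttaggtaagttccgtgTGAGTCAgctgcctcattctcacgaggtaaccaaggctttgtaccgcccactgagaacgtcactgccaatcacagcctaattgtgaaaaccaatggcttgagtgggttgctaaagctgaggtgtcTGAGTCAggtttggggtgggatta
Ctss: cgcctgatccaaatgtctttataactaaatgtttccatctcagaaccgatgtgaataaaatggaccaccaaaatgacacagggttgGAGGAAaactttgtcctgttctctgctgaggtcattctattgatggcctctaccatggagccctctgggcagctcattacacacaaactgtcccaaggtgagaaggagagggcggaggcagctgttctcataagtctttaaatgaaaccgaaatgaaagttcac

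The Mmp12 window lies at chr9:7344147-7344396 (plus strand), that of Lgals3 at chr14:47373610-47373859 (plus strand), that of Cd68 at chr11:69666171-69666420 (minus strand) and that of Ctss at chr3:95526536-95526785 (plus strand). The Mmp12 window held 2 GGAAGT matches and 1 GAGGAA match, the Cd68 window 2 TGANTCA matches and 1 GAGGAA match, and the Ctss window 1 GAGGAA match. The Lgals3 window held none of the letters searched. A window before another annotated Mmp12 start held 1 GGAAGT and 1 TGANTCA match. Over 32851 promoter windows of the same length, GAGGAA occurred in 23.3%, GGAAGT in 19.7% and TGANTCA in 6.7%. These matches describe letters and were not measured as bound sites.

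Every value below is a log2 ratio with the first-named group over the second. The deposited ratios were read as Cy5 over Cy3, because no source used here says which dye stood on top. If Cy3 was on top, all signs turn, so "positive" and "negative" are relative directions and say nothing of more or less RNA by themselves. Experiment 1 (12 arrays, Trizol RNA) paired STD, HF0, HF3 and HF4 with one another. Experiment 2 (22 arrays, Qiagen RNA) did so for HF0, HF1, HF3 and HF4, and added 4 arrays of HF0 with STD as well as 2 arrays of HF1, HF3 and HF4 with their own reversal group. The 2 experiments differ in extraction method and in the date of the arrays, which cannot be told apart from each other. All pairings were run in both dye orientations. Ratios hold no level, so a gene's own abundance could not be set against another's, and in whole tissue fewer macrophages and less RNA per macrophage cannot be told apart. Other tissues were part of these extracts. In HF0 against STD, 18 of 18 measured genes of the epididymis epithelium were negative (median -1.34 in experiment 1 and -4.61 in experiment 2), and 19 of 20 male germ cell genes were negative (median -1.75).

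HF0 met STD in both experiments, and the ratios of the matrix enzymes and the lectin were larger in experiment 2. Mmp12 read 2.25 and 1.72 on the arrays of experiment 1, and 3.20, 3.33, 3.38 and 2.72 on those of experiment 2. All 6 arrays lay on the positive side. Lgals3 read 0.59 and -0.23 in experiment 1, and 1.59, 1.54, 2.41 and 2.19 in experiment 2. Adam8 read 0.65 and 0.17 in experiment 1, and 2.07, 1.57, 1.92 and 1.58 in experiment 2. For both genes every array of experiment 2 lay above both arrays of experiment 1.

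The adaptor, the surface antigen and the lysosomal genes had smaller mean ratios than these in experiment 2. Tyrobp read 0.22 and -0.52 in experiment 1, and 1.03, 1.19, 0.75 and 0.78 in experiment 2. Adgre1 read 0.24 and -0.36 in experiment 1, and 1.14, 0.64, 0.90 and -0.09 in experiment 2, the only negative value among the 32 of that experiment. Cd68 was positive on all 6 arrays, with 0.31 and 0.02 in experiment 1, and 1.13, 0.24, 1.76 and 1.15 in experiment 2. The lysosomal membrane and protease genes again split by experiment. Laptm5 read 0.21 and -0.58 in experiment 1, and 1.05, 0.76, 1.40 and 1.24 in experiment 2. Ctss read 0.50 and -0.40 in experiment 1, and 1.35, 0.67, 1.64 and 1.31 in experiment 2. All 4 arrays of the pairing in experiment 2 were thus positive for 7 of the 8 genes, against 13.6% of all features.

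**Figure D1:**
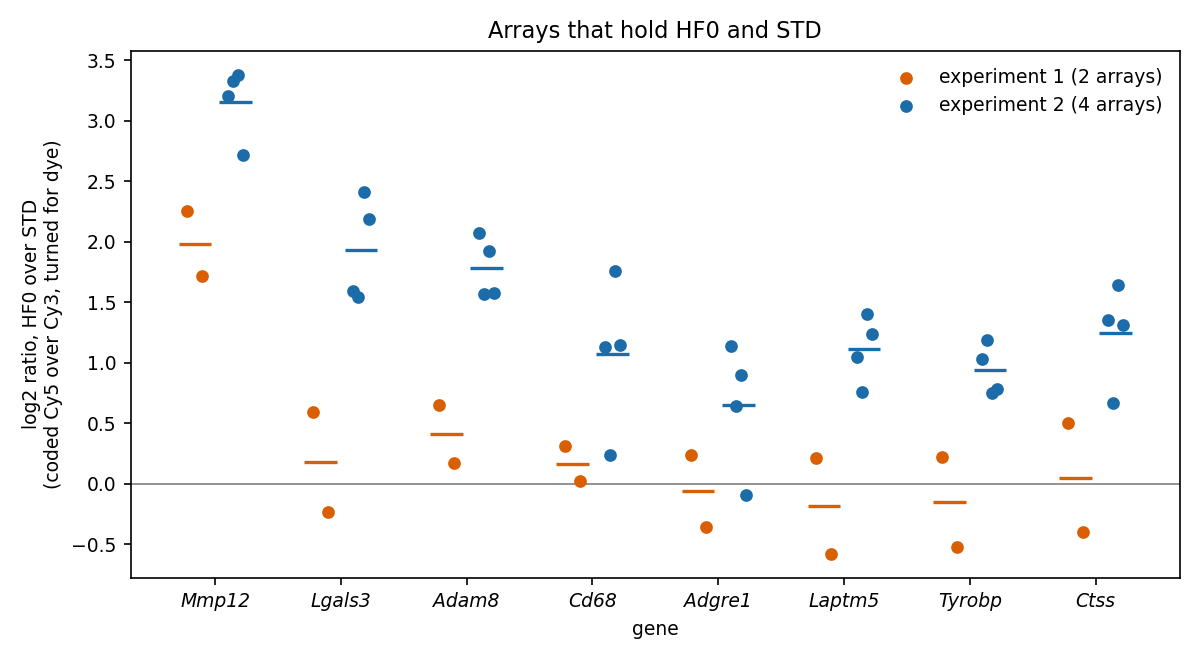
Log2 ratio of HF0 over STD (vertical axis, read as Cy5 over Cy3 and turned for dye) for the 8 genes on each array that held both groups. Points are arrays (2 in experiment 1, 4 in experiment 2) and bars are their means. Mmp12 lies between 1.72 and 3.38 throughout, while the experiment 1 means of the other genes lie between -0.19 and 0.41.

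Combining both experiments, the difference HF0 minus STD was 2.18 ± 0.46 for Mmp12 (SE, n = 2 experiments each, as for all differences with STD), 1.26 ± 0.33 for Lgals3 and 1.26 ± 0.28 for Adam8. For the other set it was 0.81 ± 0.22 for Ctss, 0.68 ± 0.22 for Laptm5, 0.67 ± 0.28 for Cd68, 0.54 ± 0.22 for Tyrobp and 0.50 ± 0.15 for Adgre1. All 8 were positive, with a median of 0.74, beside a median of 0.01 and 51.3% positive over all features. The median was 0.37 in experiment 1 and 1.18 in experiment 2. Within experiment 2 it was 1.24 on arrays of one date and 1.12 on those of another. With limma and Benjamini-Hochberg adjustment over all features, 0 of the 8 genes and 0% of all features passed an adjusted p of 0.05. At an unadjusted p under 0.05 there were 7 of the 8 genes, and 1685 of 22879 features. Adipocyte markers moved with this comparison on the other side (11 of 11 negative, median -0.57, and -0.55 and -0.53 by experiment), and their part in the ratios of the 8 genes was not tested.

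In experiment 1 the pairings did not add up for these genes. HF0 minus STD can be read directly, or through HF3 by adding HF0 minus HF3 to HF3 minus STD, or likewise through HF4. The members' median was 0.11 directly, 1.25 through HF3 and -0.05 through HF4. The direct and HF3 readings differed by a median of 1.20 in size over the 8 genes, beside 0.26 over all features. A loop of STD, HF3 and HF4 left 1.04, beside 0.24 over all features. Both large gaps contain the arrays that held HF3 and STD, on which all 8 genes were positive in both orientations, as were 20.9% of all features. Those arrays gave HF3 minus STD a members' median of 0.59, against -0.58 through HF0 and -0.29 through HF4. A loop of STD, HF0 and HF4, without those arrays, left 0.33, beside 0.30 over all features, and a loop of HF0, HF3 and HF4 left 0.45, beside 0.24.

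Adgre1 and Mmp12 show the 2 forms this took. Adgre1 had HF0 minus STD at -0.06 directly, at 1.65 through HF3 and at -0.10 through HF4, so its positive value in experiment 1 came from the HF3 route. Mmp12 had 1.98 directly, 1.11 through HF3 and -0.24 through HF4, so here the direct arrays stood highest. In experiment 2, where 4 such loops among HF0, HF1, HF3 and HF4 can be read, the members' gaps were 0.16 to 0.40, beside 0.20 to 0.26 over all features. Leaving out the arrays of HF3 with STD, an alternative chosen after seeing the data, gave a members' median of 0.60 in HF0 against STD over both experiments. It changes experiment 1 only, and the members' median of experiment 2 stays at 1.18. In experiment 1 the direct arrays and the HF4 route, which lack the arrays left out, had members' medians of 0.11 and -0.05.

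**Figure D2:**
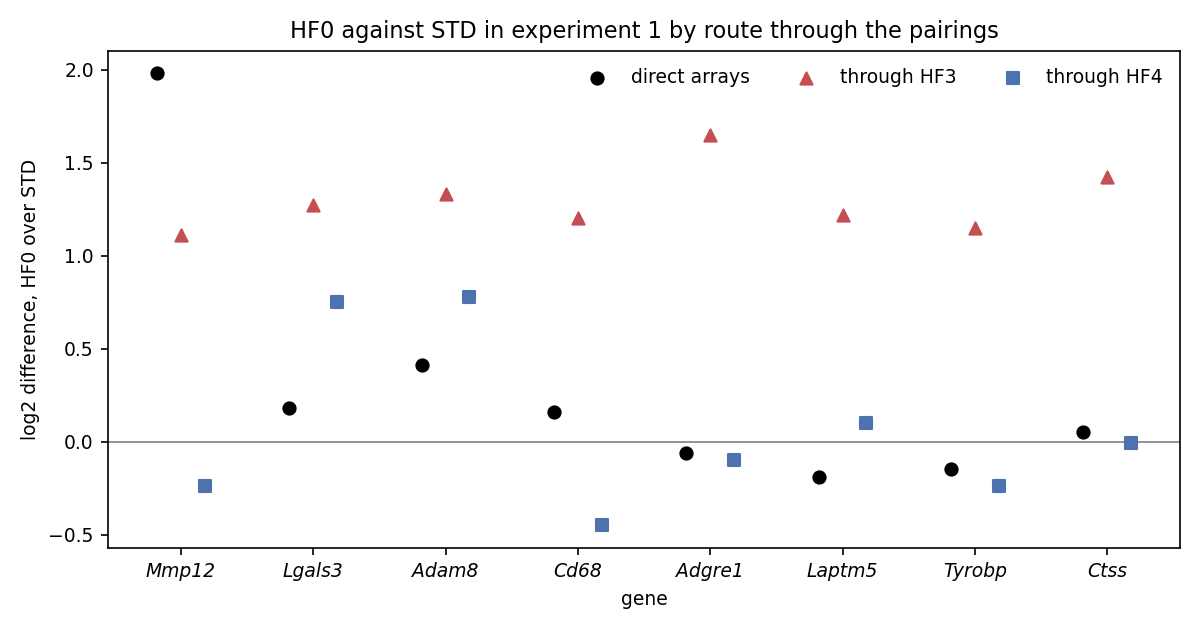
Log2 difference HF0 over STD in experiment 1 (vertical axis) for the 8 genes, read from the direct arrays (circles, means of 2 arrays), through HF3 (triangles) and through HF4 (squares). The HF3 route gives 1.11 to 1.65 for all 8 genes, and the other routes give values on both sides of 0.

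The dye orientation shifted these genes as well. In experiment 1 the array with the first-named group in Cy5 gave the higher ratio in 48 of 48 gene and pairing combinations (median gap 0.59, range 0.12 to 1.04). In experiment 2 it did so in 54 of 80 (median 0.21), among them 10 of 10 for Ctss and 9 of 10 for Lgals3, but 2 of 10 for Adgre1. The gap cancels in the mean of the 2 orientations, on which the differences between groups rest.

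Later generations kept the positive side over STD for the matrix enzymes and the lectin. In HF3 minus STD, Mmp12 stood at 1.42 ± 0.46, Lgals3 at 1.24 ± 0.33 and Adam8 at 1.09 ± 0.28, and in HF4 minus STD they stood at 1.78 ± 0.46, 1.01 ± 0.33 and 1.31 ± 0.28. These 6 differences stayed positive under all 14 alternatives that gave them a value. A changed prior, probe choice or reference group, which are among the 14, could not move them. The lowest value was 0.14, for Mmp12 in HF4 minus STD from the arrays that held both groups. The other set lay nearer to 0. In HF3 minus STD, Ctss stood at 0.55 ± 0.22, Cd68 at 0.49 ± 0.28, Laptm5 at 0.25 ± 0.22, Tyrobp at 0.19 ± 0.22 and Adgre1 at -0.13 ± 0.15. In HF4 minus STD the same genes stood at 0.49, 0.17, 0.16, 0.09 and 0.01. Each of the 10 values turned its sign under at least 1 alternative.

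The members' median was 0.52 in HF3 against STD (0.07 in experiment 1, 1.00 in experiment 2) and 0.33 in HF4 against STD (-0.01 and 0.76). No gene of the 8 was called in either comparison, where 0% and 0.437% of all features were called. At an unadjusted p under 0.05 there were 4 genes in HF3 against STD and 3 in HF4 against STD, and 1708 and 3431 features. HF3 and HF4 met STD on arrays of experiment 1 alone. There, HF4 with STD read -0.18 and 0.47 for Mmp12, -0.26 and 0.74 for Lgals3, 0.37 and 0.89 for Adam8, and -1.16 and -0.26 for Cd68. Adam8 was positive on both arrays, Mmp12 and Lgals3 on 1 each and Cd68 on neither. Of all features, 25.2% were positive and 23.7% negative on both arrays. All comparisons with STD share the same STD extracts. Genes of the epididymis epithelium moved too, with 17 of 18 negative in HF3 against STD (median -0.08 in experiment 1 and -3.62 in experiment 2) and 17 of 18 in HF4 against STD (-0.95 and -3.37). Male germ cell genes were positive for 19 of 20 in HF3 against STD (median 0.47) and for 20 of 20 in HF4 against STD (median 1.71). The part of either in the values of the 8 genes was not tested.

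**Figure D3:**
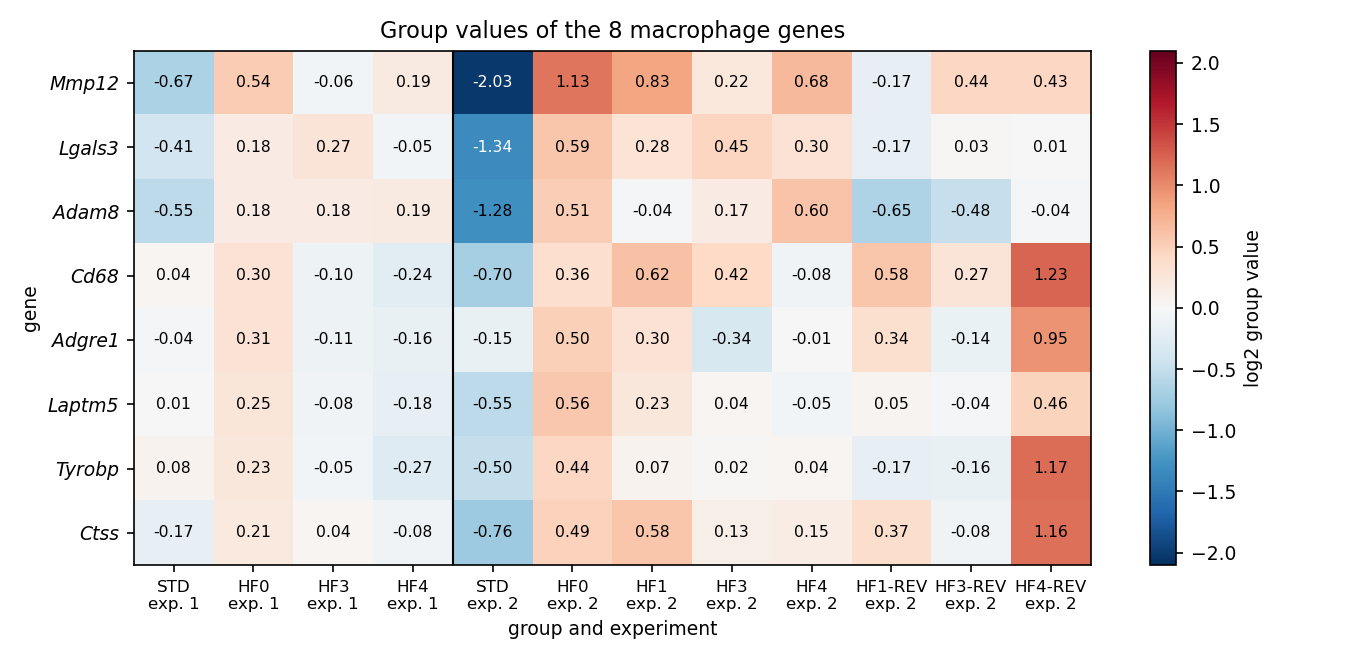
Group values (log2, relative to the mean of STD, HF0, HF3 and HF4 of the same experiment) of the 8 genes in the 4 groups of experiment 1 and the 8 groups of experiment 2. STD of experiment 2 is the lowest group for 7 of the 8 genes, down to -2.03 for Mmp12, and HF4-REV is the highest for Cd68, Adgre1, Tyrobp and Ctss (0.95 to 1.23).

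Across the 12 group values the order of groups differed between genes. Mmp12 had its lowest group value in STD of experiment 2 (-2.03) and its highest in HF0 of experiment 2 (1.13). Lgals3 and Adam8 also had their lowest values there (-1.34 and -1.28), and their highest in HF0 (0.59) and HF4 (0.60) of experiment 2. Cd68, Ctss, Tyrobp and Laptm5 had their lowest values in the same STD extract (-0.70, -0.76, -0.50 and -0.55), and Adgre1 had its lowest in HF3 of experiment 2 (-0.34). In STD of experiment 1 these 5 genes lay between -0.17 and 0.08. Neighbours in a gene's order of groups differed by less than the SE of a difference between 2 single extracts (0.21 for Adgre1 to 0.66 for Mmp12) for 22 of 24 steps in experiment 1 and 42 of 56 in experiment 2.

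Set against HF0, the later high fat generations lay on the negative side for most of the 8 genes, apart from Adam8 in HF4. HF3 minus HF0 was negative for all 8 (median -0.31), with Mmp12 at -0.76 ± 0.46, Adgre1 at -0.63 ± 0.15, Laptm5 at -0.42 ± 0.22 and Lgals3 at -0.02 ± 0.33. On the 4 arrays that held HF3 and HF0, Adgre1 read -1.29, -0.73, -0.73 and -0.55, and Mmp12 read -0.80, -0.33, -0.83 and -0.89. Both genes were negative on all 4. Of all features, 23.5% were negative on both such arrays of experiment 1, and 24.7% on both of experiment 2. HF4 minus HF0 was negative for 7 of the 8 (median -0.43), from -0.52 ± 0.22 for Laptm5 to -0.26 ± 0.33 for Lgals3, with Adam8 at 0.05 ± 0.28. Over all features, 48.4% were positive in HF3 against HF0 and 42.5% in HF4 against HF0 (medians -0.01 and -0.03). The members' medians within experiments were -0.31 and -0.39 in HF3 against HF0, and -0.39 and -0.43 in HF4 against HF0. Of all features, 0% were called in HF3 against HF0 (0 of the 8 genes, 1 at an unadjusted p under 0.05, with 1785 features), and 4.21% in HF4 against HF0 (0 of the 8 genes, 1 at an unadjusted p under 0.05, with 2500 features). Male germ cell genes moved with both comparisons, 20 of 20 positive in HF3 against HF0 (median 2.47, none called) and in HF4 against HF0 (median 3.31, 17 called). Epididymis genes were positive for 18 of 18 in HF3 against HF0 (median 0.87) and for 16 of 18 in HF4 against HF0 (median 0.69). For these other tissues, their part in the values of the 8 genes was not tested.

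On the arrays that held HF4 and HF0, the sign of Mmp12 differed between the experiments. They read 0.67 and 0.09 in experiment 1, and -0.32 and -0.39 in experiment 2. The fitted Mmp12 differences, which also use the other pairings, were negative in both experiments (-0.36 and -0.45). On the arrays that held HF3 and HF0, the sign of Cd68 differed too, with -1.17 and -0.42 in experiment 1, and 0.36 and 0.03 in experiment 2. Against HF1, which has n = 1 experiment, HF3 had a median of -0.35 and HF4 one of -0.36, with Adam8 positive in both (0.21 ± 0.35 and 0.43 ± 0.35). Within experiment 2 these medians were -0.19 and -0.22. HF1 minus HF0 had a median of -0.11, from -0.38 for Adam8 to 0.29 for Cd68. It was -0.30 within experiment 2 and -0.43 on the arrays that held both groups, where 6 of the 8 genes were negative on both arrays, beside 27.4% of all features. Mmp12 read -0.48 and -0.41 there, against -0.01 ± 0.59 in the combined fit. HF4 minus HF3 had a median of -0.08, from -0.32 for Cd68 to 0.36 for Mmp12. None of the 8 genes was called in these 4 comparisons (1 at an unadjusted p under 0.05, in HF3 against HF1). Of all features, 0% were called in HF3 against HF1, HF1 against HF0 and HF4 against HF3, with 2086, 1643 and 1259 at an unadjusted p under 0.05. In HF4 against HF1 it was 2.81%.

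The reversal arrays set mice on high fat food against relatives put on the normal food, and in HF4 with HF4-REV the signs differed between the genes. That pairing read -1.03 and -1.61 for Cd68, -1.39 and -0.88 for Tyrobp, and -0.72 and -1.31 for Ctss. Adgre1 read -1.09 and -0.83, and Laptm5 -0.58 and -0.46. These 5 genes were negative in both dye orientations. Mmp12 read 0.34 and 0.16, Lgals3 0.41 and 0.18, and Adam8 0.83 and 0.44, so these 3 were positive in both. Over all features, 31.4% were positive and 29.9% negative on both arrays.

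In the combined fit, where HF4 enters as its mean over both experiments and HF4-REV as 1 extract, HF4 minus HF4-REV was -1.39 ± 0.36 for Cd68, -1.29 ± 0.28 for Tyrobp, -1.13 ± 0.29 for Ctss, -1.04 ± 0.19 for Adgre1 and -0.58 ± 0.28 for Laptm5. It was 0.43 ± 0.35 for Adam8, 0.12 ± 0.42 for Lgals3 and 0.00 ± 0.59 for Mmp12. The Mmp12 value ran from -0.22 to 0.25 over 13 alternatives. Tyrobp and Adgre1 were called, 2 of the 8, where 11.2% of all features were called (2552 of 22879). Without the arrays of HF3 with STD in experiment 1, 374 features and none of the 8 genes were called. With scale or quantile normalization none of the 8 was called either. Male germ cell genes were on the opposite side here (20 of 20 positive, median 3.61). Red cell genes were on the same side as the 5 negative genes (5 of 5 negative, median -0.87). Median group values of markers in experiment 2 were also lower in HF4 than in HF4-REV for further cell types. They were 0.01 and 1.11 for macrophages, -0.21 and 0.33 for adipocytes, and -0.35 and 0.20 for endothelial cells. For fibroblasts they were -0.13 and 0.30, for T or NK cells 0.03 and 0.54, and for dendritic cells -0.04 and 0.44. Those of neutrophil, B cell, mast cell, mesothelium and epididymis markers were higher in HF4. The part of these cells and tissues was not tested.

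**Figure D4:**
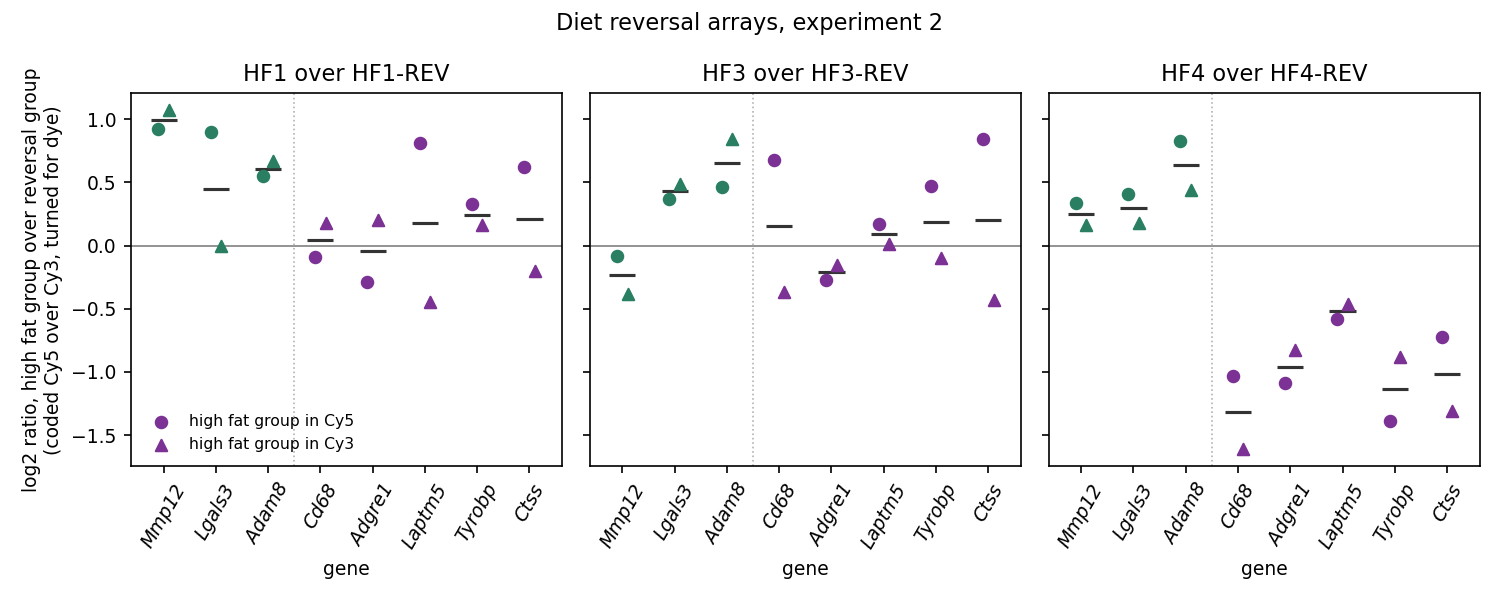
Log2 ratio of each high fat group over its reversal group (vertical axis, read as Cy5 over Cy3 and turned for dye) for the 8 genes, on the array with the high fat group in Cy5 (circles) and in Cy3 (triangles), with bars at their means. In HF4 over HF4-REV Mmp12, Lgals3 and Adam8 (green) are positive on both arrays, and the other 5 genes (purple) lie between -0.46 and -1.61.

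The earlier reversals did not show that split. HF1 with HF1-REV read 1.07 and 0.92 for Mmp12 and 0.67 and 0.55 for Adam8, both positive on both arrays. Lgals3 read 0.00 and 0.90. Among the other 5, only Tyrobp had the same sign on both arrays (0.16 and 0.33), and the combined differences ran from -0.05 ± 0.21 for Adgre1 to 0.25 ± 0.32 for Tyrobp. HF3 with HF3-REV read 0.46 and 0.84 for Adam8 and 0.37 and 0.49 for Lgals3, but -0.08 and -0.38 for Mmp12. Adam8 was thus positive on all 6 reversal arrays, at 0.44 or above. The members' median was 0.23 in HF1 against HF1-REV and 0.09 in HF3 against HF3-REV. Leaving out 1 array gave 0.17 to 0.59 in HF1 against HF1-REV, and -0.09 to 0.35, on both sides of 0, in HF3 against HF3-REV. None of the 8 genes was called in either, nor had any an unadjusted p under 0.05, where 0% and 0.0874% of all features were called, with 821 and 3523 at an unadjusted p under 0.05.

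Correlations between the genes were taken across the 12 group values, from which the 2 sets were also formed. Mmp12 and Lgals3 had r = 0.93, Lgals3 and Adam8 r = 0.89, and Mmp12 and Adam8 r = 0.83. In the other set the 10 pairs had r of 0.74 to 0.93, highest for Cd68 and Ctss. Between sets the pairs ranged from 0.16 (Adam8 and Adgre1) to 0.78 (Mmp12 and Laptm5). These are descriptions, because group values share arrays and extracts, and the 2 STD extracts weigh on them. Without those, over 10 group values, the first set had r of 0.52 to 0.72, the second 0.71 to 0.91, and pairs between sets -0.39 to 0.63. Mmp12 then had r = 0.63 with Laptm5 of the other set, above its 0.60 with Lgals3 and 0.52 with Adam8.

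**Figure D5:**
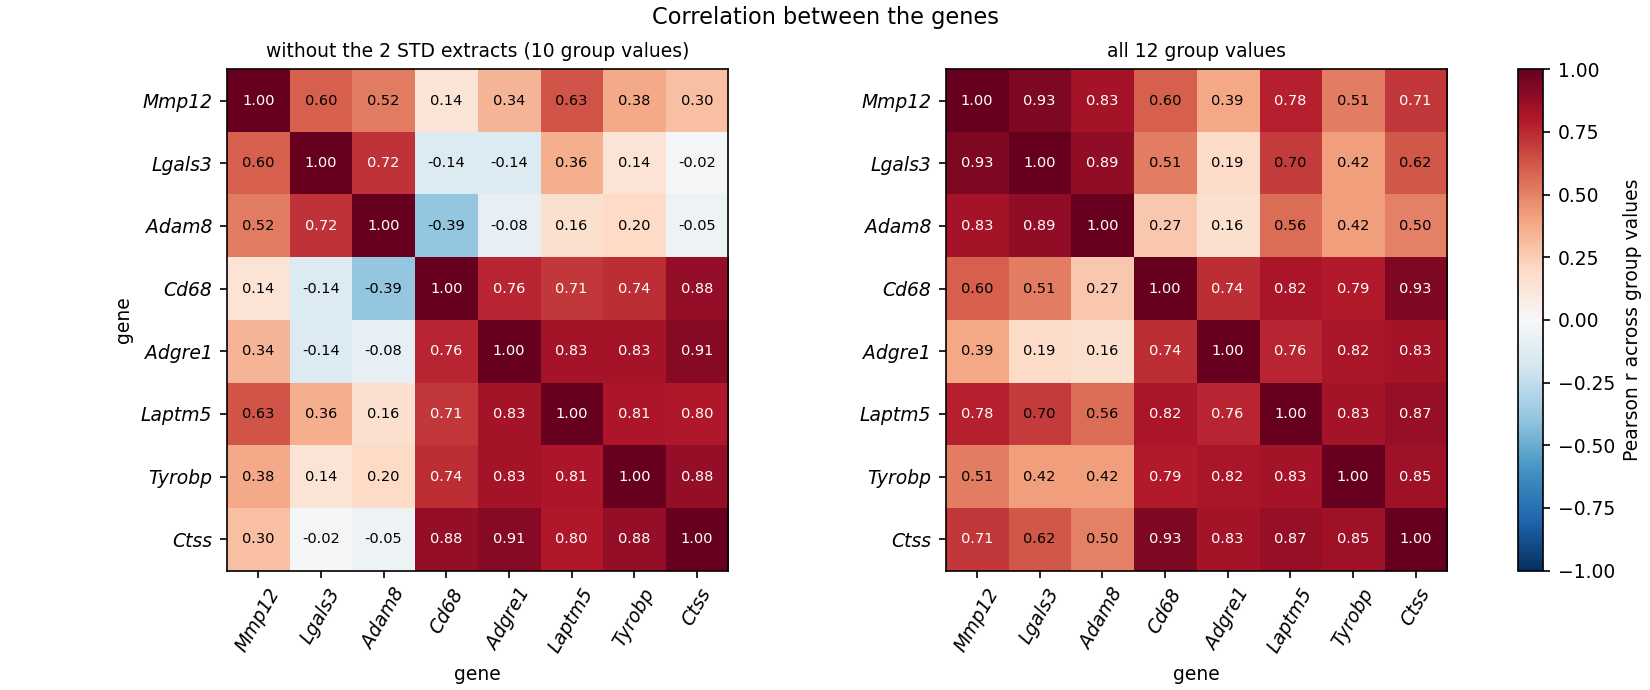
Pearson correlation of the 8 genes across group values, without the 2 STD extracts (left, 10 group values) and over all 12 (right). Cd68, Adgre1, Laptm5, Tyrobp and Ctss form the darker block at the lower right in both panels (r of 0.71 to 0.91 and of 0.74 to 0.93).

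The genes whose 12 group values ran most like the mean of the 8 were found among 18609 other features with a symbol. That mean was -0.91 in STD of experiment 2 and -0.21 or above elsewhere, so this STD extract weighs on the r values. A ranking without the STD extracts is not given here. Ms4a6d had r = 0.972 and Gpr137b r = 0.968, followed by Tlr7, a receptor for single-stranded RNA (0.946), and Eloc (0.944). Itgb2 (0.944) and Itgax (0.937) encode the integrin chains CD18 and CD11c. Glipr1 (0.943), Ctsz (0.937), the lysosomal protease cathepsin Z, Tgfbi (0.937) and P2ry12 (0.935) complete the 10. Ranking by Spearman's rho kept 5 of the 10, and experiment 2 alone kept 5. For single genes, Akr1b8 ran most like Mmp12 (0.968), Cd86, a costimulatory ligand, most like Lgals3 (0.936), and Marco, a scavenger receptor, most like Adam8 (0.950). Ctsz ran most like Laptm5 (0.975), Pdcl and then H2-Eb1, an MHC class II chain, most like Cd68 (0.981 and 0.977). Slc13a3 ran most like Adgre1 (0.976), Pygo1 most like Tyrobp (0.969) and Ywhag most like Ctss (0.957).

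Other genes of the same functions, from lists chosen with earlier results of these data known, were also mostly positive in HF0 against STD, with none called, and their medians were nearer to 0 in experiment 1 than in experiment 2. Of 21 measured adaptors and receptors of phagocytes 19 were positive (median 0.49, and 0.13 and 0.85 by experiment), led by Lilrb4a, an inhibitory receptor (1.21 ± 0.46), Trem2, a lipid receptor that signals through Tyrobp (1.03 ± 0.26), and Clec4d, a C-type lectin (1.00 ± 0.30). Of 20 genes of resident macrophages 18 were positive (median 0.38, and 0.08 and 0.88 by experiment), among them Cd163, the haemoglobin scavenger receptor (0.88 ± 0.30), F13a1 (0.85 ± 0.20) and Mrc1, the mannose receptor (0.79 ± 0.31). Of 23 lysosomal genes 20 were positive (median 0.20, and 0.09 and 0.39 by experiment), with the proteases Lgmn at 0.67 ± 0.16, Ctsz at 0.63 ± 0.17 and Ctsb at 0.60 ± 0.17. Of 23 monocyte recruitment genes 17 were positive (median 0.25, and -0.05 and 0.54 by experiment), with Itgb2 at 0.78 ± 0.24 and the chemokine gene Ccl9 at 0.77 ± 0.23. Lipid-laden macrophage genes lay closer to all features, 15 of 21 positive with a median of 0.15 (0.12 and 0.22 by experiment), with Itgax at 0.81 ± 0.21 and the proton pump subunit Atp6v0d2 at 0.78 ± 0.14.

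Of 9 macrophage markers other than Cd68 and Adgre1 all were positive in HF0 against STD (median 0.28), but the median was -0.01 in experiment 1 and 0.85 in experiment 2. Pan leukocyte genes were positive for 11 of 13 (median 0.32, and -0.01 and 0.65 by experiment), with Ptprc, which encodes CD45, at 0.92 ± 0.40. Of 14 myeloid transcription factors 10 were positive (median 0.11), with Irf5 at 0.50 ± 0.19. Relatives of the 8 genes were positive for 25 of 34 (median 0.17), with the metalloproteinase genes Mmp7 at -1.01 ± 0.56 and Mmp3 at 0.62 ± 0.17. Of neutrophil markers 9 of 12 were positive (median 0.12), with S100a8 at 0.95 ± 0.26 and Lcn2 at -2.32 ± 0.76. Median group values of experiment 2 were also higher in HF0 than in STD for other cells. They were 0.02 and -0.46 for fibroblast markers, 0.21 and -0.49 for mast cell markers, and 0.20 and -0.24 for T or NK cell markers. Adipocyte, endothelial, red cell, male germ cell and epididymis medians were lower in HF0 there. The part of any of these was not tested.

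In HF4 against HF4-REV most genes of the lists were negative, while their called counts are to be read beside the 11.2% of all features called there. All 23 lysosomal genes were negative (median -0.71), and 2 were called, Lamp1, a lysosome membrane glycoprotein (-0.89 ± 0.17, limma adjusted p = 0.0289), and Npc1, a cholesterol transporter (-0.93 ± 0.20, limma adjusted p = 0.039). Of the 20 resident macrophage genes 19 were negative (median -1.36). Called as negative were Folr2 (-2.57 ± 0.61), Clec10a (-1.87 ± 0.39), Cbr2, C1qb, Ms4a7, F13a1 and Stab1, while Timd4, a receptor for dead cells, was called as positive (1.09 ± 0.21) but stood at -0.21 from the arrays with the first-named group in Cy5 alone. Among recruitment genes, 18 of 23 were negative (median -0.57), and the chemokine genes Ccl4 (-1.82 ± 0.30), Ccl8 (-1.46 ± 0.31), Ccl3 (-1.05 ± 0.20) and Cx3cl1 (-0.96 ± 0.16) were called. Of the phagocyte receptors 17 of 21 were negative (median -0.36), and the Fc receptor genes Fcgr2b (-1.13 ± 0.27) and Fcgr4 (-0.98 ± 0.15) were called.

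Of the lipid-laden macrophage genes in HF4 against HF4-REV, 18 of 21 were negative (median -0.38), with Acp5, an acid phosphatase, called as negative (-1.38 ± 0.15) and Dcstamp, which acts in cell fusion, as positive (1.16 ± 0.18). Relatives of the 8 genes were negative for 26 of 34 (median -0.40), and besides Lamp1 the gelatinase gene Mmp9 (-2.06 ± 0.30) and the galectin gene Lgals1 (-0.79 ± 0.15) were called. Of the pan leukocyte genes 12 of 13 were negative (median -0.62), with Rac2, a GTPase of blood cells, called (-1.23 ± 0.26). None of 14 myeloid transcription factors was called in either direction (median -0.27, with Batf3 at -0.77 ± 0.23). The median of all features in this comparison was 0.03. Calls over all features there fell with scale or quantile normalization and without the arrays of HF3 with STD in experiment 1. Which of the named list genes kept their call under those settings is not given here. In HF4 against HF0 none of the genes in these 8 lists was called, and 22 of 23 lysosomal, 20 of 21 lipid-laden and 19 of 20 resident macrophage genes were negative (medians -0.28, -0.20 and -0.36). Over all features, 4.21% were called in that comparison and 42.5% were positive (median -0.03).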

How the data were processed

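The log2 ratios used here are the ones the authors deposited, 1 per probe and array for 25344 probes on 34 arrays; no source used here states the background correction, normalization or log base. Base 2 was assumed, since log10 of 16-bit intensities cannot pass 4.82 and the highest value is 7.99; a natural log cannot be told apart, so no folds are given. No intensities were at hand, so dim spots were kept, and precision is limited by how many extracts the experiments give.

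Probes were named through the platform annotation (21082 had 1 symbol, 30 several, 4232 none) and averaged per gene. The median of each array was set to 0, the sign-turned dye orientations of a pairing were averaged, and group values were fitted by least squares within each experiment. The 12 group values were fitted with limma's lmFit and eBayes (version 3.58.1, R 4.3.3), blocking on the experiment, on 3 residual degrees of freedom and 3.16 from the prior, followed by Benjamini-Hochberg adjustment over 22879 features and a threshold of 0.05. HF1, HF1-REV, HF3-REV and HF4-REV come from 1 experiment, and the fit gives them the spread of the other groups. P-values measure only the spread between the experiments' extracts, which may be technical. The procedure was tested on simulated data whose pairings added up apart from array noise. That test does not cover the gaps between pairings seen in experiment 1. Promoters and figures used Python 3.11.15, pandas 2.3.3 and matplotlib 3.10.9.

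The 8 genes, and the 8 role lists and 13 marker lists, were chosen with earlier results of these data known. Named beside the 8 genes are list members past the threshold, up to 3 per list with the largest differences, and the 10 genes most like the members' mean (for single genes, those ranked highest). Alternatives covered normalization, centring, the prior, the probe rule, single experiments, dye orientations, direct arrays, left-out arrays, STD of experiment 2 and 2 left-out pairings.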

Additional observations from a re-analysis of the deposited data

Results flagged for a closer look

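In 6 cases all arrays of 1 pairing of a gene lay on one side of 0 and all arrays of a matching pairing on the other. In the pairings concerned, 16.7% to 31.4% of all features lay on the same side as the gene on both arrays. How many features had such opposite pairings was not counted, so nothing is read from the 6. None of these differences was tested, and each rests on 2 arrays per pairing. Mmp12 in HF4 against HF0 averaged -0.35 in experiment 2 and 0.38 in experiment 1, a difference of -0.73. The fitted differences, which also use the other pairings, were -0.45 and -0.36. Cd68 in HF3 against HF0 averaged 0.20 in experiment 2 and -0.79 in experiment 1, a difference of 0.99. Between reversal pairings, Mmp12 averaged -0.23 in HF3 against HF3-REV and 1.00 in HF1 against HF1-REV, a difference of -1.23. It averaged 0.25 in HF4 against HF4-REV, which is 0.48 above the HF3 reversal. Laptm5 averaged -0.52 in the HF4 reversal and 0.09 in the HF3 reversal, a difference of -0.61. Tyrobp averaged -1.14 in the HF4 reversal and 0.25 in the HF1 reversal, a difference of -1.38. None of the 8 groups of 4 arrays tested had an array standing apart.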

How the results depend on the processing

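Members' medians moved by more than 0.25, the median residual SD of the 8 genes in the fit, as follows. In HF0, HF3 and HF4 against STD they were 0.43, 0.08 and 0.02 without STD of experiment 2, 0.37, 0.07 and -0.01 in experiment 1 alone, and 1.18, 1.00 and 0.76 in experiment 2 alone. Arrays with the first-named group in Cy5 alone gave 1.00, 1.08 and 1.05 there, -0.16 in HF4 against HF0 and 0.59 in HF1 against HF1-REV. Those with it in Cy3 alone gave 0.04 in HF3 against STD, -0.10 in HF4 against STD, -0.73 in HF4 against HF0 and -0.62 in HF4 against HF1. Arrays that held both groups alone gave -0.26 in HF4 against STD and -0.43 in HF1 against HF0. Without the HF3 with STD arrays of experiment 1, HF3 against STD was 0.23. Leaving out 1 array gave 0.17 to 0.59 in HF1 against HF1-REV and -0.09 to 0.35 in HF3 against HF3-REV. The causes were not tested.

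Members called in HF4 against HF4-REV were 2 in the fit as reported, 0 with scale normalization, quantile normalization or without HF3 with STD of experiment 1, and 4 without STD of experiment 2 or without HF0 with STD of experiment 1. Leaving out 1 array gave 1 to 4. In HF4 against STD there were 2 with scale normalization, and 1 without STD of experiment 2 or without HF0 with STD of experiment 1. There was 1 in HF3 against HF0 without STD of experiment 2, and 1 in HF0 against STD without HF0 with STD of experiment 1. The resident macrophage gene Timd4 turned to -0.21 in HF4 against HF4-REV with Cy5 alone.

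Over all features, calls in HF4 against HF4-REV (2552) became 1094 with scale and 29 with quantile normalization, 374 without HF3 with STD, 4884 without STD of experiment 2, and 1512 to 6458 leaving out 1 array. In HF4 against HF0 (963) they became 1 without HF3 with STD, and in HF4 against HF1 (644) 0, with 403 after quantile normalization and 1372 without STD of experiment 2. The 100 calls in HF4 against STD became 0 with quantile normalization or without HF3 with STD, 310 with scale, 898 without STD of experiment 2, 546 without HF0 with STD, and 40 to 216 leaving out 1 array. The 20 in HF3 against HF3-REV ranged from 0 to 2300 leaving out 1 array, and were 0, 13, 235, 227, 886 and 445 without HF3 with STD, with the most variable probe, with quantile or scale normalization, without STD of experiment 2 and without HF0 with STD. Of the comparisons with no call, HF0 against STD had 381 without HF0 with STD of experiment 1, HF3 against HF0 121 with scale, 584 without STD of experiment 2 and 447 without HF0 with STD, HF3 against HF1 450 and 175 under the last pair of settings, HF4 against HF3 252 and HF1 against HF1-REV 8 without STD of experiment 2, and HF1 against HF1-REV up to 281 leaving out 1 array. No paired analysis was possible because replicate numbers follow accession order and both dye orientations of a pairing are already averaged.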
